A study of Homo sapiens with 18 samples.

Results

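The comparison set 3D against 2D culture of MCF10A cells at the first of 3 harvests and used 6 of the 18 libraries of the series, 3 from each culture, chosen by their column names in the deposited count table and paired by replicate number. MCF10A is 1 established, immortalised and non-malignant breast epithelial cell line. In both cultures the cells were plated sparsely on compliant polyacrylamide gels coated with Matrigel at 50 µg/ml, in medium with horse serum at 5%, EGF at 20 ng/ml, insulin, cholera toxin and hydrocortisone. After 1 h the 3D cultures received medium holding 2% Matrigel (basement membrane material rich in laminin, which then also covers the cells from above), and the 2D cultures received fresh medium without it. Harvests at 3, 12 and 21 h are listed by the protocol and are matched to timepoints 1, 2 and 3 by their order alone, which puts this comparison early. Both cultures therefore touched Matrigel from below, and the tested difference is the Matrigel in the medium.

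Epithelial cells read their matrix through integrins and the actin cytoskeleton, and the co-activators YAP and TAZ enter the nucleus on spread cells, bind TEAD factors and switch on genes such as CCN2 and CCN1. TGF-beta is kept latent in matrix; once freed it acts through receptor kinases on SMAD proteins, which induce matrix genes and their own inhibitors, SMAD7 and SKIL. Immediate early genes such as JUN and FOSB encode AP-1 transcription factors and answer growth factors and adhesion within minutes to hours, before slower changes in cell identity.

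The 6 libraries had totals of 12.2 to 14.9 M (3D) and 10.5 to 17.7 M (2D) in the headers of the deposited log2 CPM table, and the summed gene counts were 4.73 to 5.53 times those totals. Values in CPM (counts scaled per library, with edgeR's TMM factors) are therefore compared within a gene and not between genes. The 15 listed markers of mammary epithelial identity were all above 1 CPM on average, with sums of 13139 to 19684 CPM in 3D, against 11876 to 20141 CPM in 2D libraries. Of the other cell types, endothelial markers summed to 3.89 to 5.30 and 4.44 to 7.59 CPM, leukocyte markers to 17.2 to 24.0 and 19.7 to 22.7 CPM, and adipocyte markers to 0.742 to 0.869 and 0.526 to 1.38 CPM, in 3D and 2D libraries in that order. Fibroblast markers summed to 131 to 160.4 CPM over 3D libraries, against 141 to 162 CPM over 2D libraries, most of it from DCN, while COL3A1 had no count in any of the 6. The spread behind each p-value was estimated over the 17 libraries fitted, from all 6 groups of culture and timepoint. The labels do not say whether the libraries came from separate cultures, so that spread may be technical.

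Libraries of one replicate number resembled each other more than libraries of one culture did. Over 13582 genes with a mean count of at least 50, the median absolute log2 difference between the 3D and the 2D library was 0.11 for number 1, 0.13 for number 2 and 0.16 for number 3. Between libraries of the same culture it was 0.25 to 0.44. The first principal component of the 6 libraries held 42.0% of the variance and set both libraries of number 3 apart from the other 4. The culture difference was therefore read within pairs, as 3D minus 2D.

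At this early harvest no gene passed the test between 3D and 2D cells over all genes. The quasi-likelihood F test of edgeR with the replicate number as a block called 0 of 18592 genes (0%) at a Benjamini-Hochberg adjusted p under 0.05, and the smallest adjusted p was 0.809. Without adjustment 388 genes had a p under 0.05 (2.09%), fewer than the 5% that uniform p-values give, 192 of them higher in 3D (1.03%) and 196 lower (1.05%). limma-voom called 0 genes and had 452 at an unadjusted p under 0.05. DESeq2 called 9, 5 higher and 4 lower, of which 4 had no count in one of the cultures; the other 5 were CCN2, LBH and SNAI2 on the higher side and GAD1 and AP3B2 on the lower side. Without the 3D library of replicate 1, edgeR called 5 genes, all higher in 3D (SNAI2, LBH, TUBA4A, JUN and PMEPA1), and without both libraries of number 1 it called 1, SNAI2.

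How large a difference these libraries still allow can be stated gene by gene. The 95% interval of the log2 fold change lay within 2-fold either way for 13427 of 18588 genes with an interval (72.2%) and within 1.5-fold for 9359 (50.3%). Among the genes with a mean count of at least 50, the median absolute log2 fold change was 0.07 at timepoint 1, 0.30 at timepoint 2 and 0.30 at timepoint 3, and 35, 559 and 716 of them lay beyond 2-fold. By the same test 2949 genes (15.9%) passed at timepoint 2 and 1813 (9.75%) at timepoint 3, of which 1674 (9%) and 827 (4.45%) rose and 1275 (6.86%) and 986 (5.3%) fell.

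**Figure D1:**
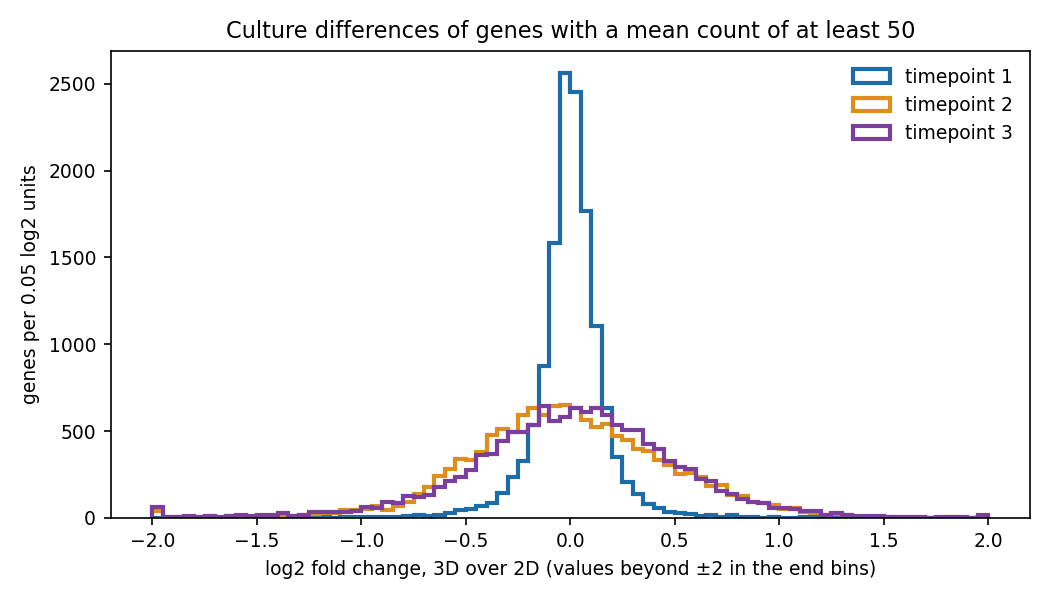
Histogram of the fitted log2 fold changes, 3D over 2D, of the 13582 genes with a mean count of at least 50 over the 6 timepoint 1 libraries, one line per timepoint, in bins of 0.05 with values beyond 2 in the end bins. The timepoint 1 line is narrow, with a median absolute value of 0.07, against 0.30 at timepoints 2 and 3.

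Before single genes are described, some features of single libraries are given, which went with numbers 2 and 3. The 13 mitochondrially encoded protein genes, whose nuclear copies make counts uncertain, were all below 0 in the fit, with a median of -0.22 and pair medians of 0.03, -0.35 and -0.41 for numbers 1, 2 and 3; 0 had an unadjusted p under 0.05. The share of counts on mitochondrially encoded genes was 1.21%, 0.976% and 0.541% in 3D libraries, against 1.17%, 1.25% and 0.658% in 2D libraries. NEAT1, a nuclear RNA of paraspeckles, was at 101, 86.5 and 113 CPM in 3D, against 95.1, 287 and 178 CPM in 2D, and MALAT1, another nuclear-retained RNA, at 168, 127 and 125 CPM in 3D, against 153, 311 and 159 CPM in 2D. The 2D library of number 2 was the highest in both, and it is the same library against which PMEPA1, JUN and ID3 had their largest pair differences. The part of this library, of the mitochondrial share and of RNA quality in those differences was not tested. Without it the log2 fold changes, 3D over 2D, were 1.42 for PMEPA1, 1.09 for JUN and 0.28 for ID3, beside 1.62, 1.35 and 0.57 with it, and 861 genes had an unadjusted p under 0.05 and 0 were called. The 3D library of number 2 was the highest of all in these genes. With that 3D library left out instead, the log2 fold changes were 1.23 for PMEPA1, 0.85 for JUN and 0.43 for ID3.

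CCN2, a target of both YAP-TAZ and TGF-beta, had the smallest edgeR p of all genes tested that were higher in 3D. This gene (ENSG00000118523.6; chromosome 6, 131948176 to 131951372 on hg38, minus strand; protein-coding), which encodes the secreted matricellular protein also called connective tissue growth factor, stood at 20.5, 32.8 and 14.0 CPM in 3D libraries 1 to 3, against 12.6, 8.82 and 6.02 CPM in 2D libraries 1 to 3. Every 3D library was above every 2D library, as for 265 of the genes tested (1.43%). The log2 fold change was 1.35 (SE 0.30, 95% interval 0.71 to 1.99; edgeR adjusted p = 1, unadjusted p = 0.000508), so the gene did not pass the test over all genes although DESeq2 called it (adjusted p = 0.0370). Without the 3D library of replicate 2 the log2 fold change was 0.91, and without that of replicate 1 it was 1.67. Exons of CCN2 share 195 bases with AL133346.1 on the opposite strand; the sources used here do not say whether reads were counted by strand, so reads of the 2 genes cannot be told apart. The same holds for 29 of 112 genes examined for it, among them PMEPA1 with NKILA (343 bases), JUNB with HOOK2 (259), TUBA4A with STK16 (627), PHLDB1 with TREH (723), TP73 with TP73-AS1 (633) and DDIT3 with MARS (355). In bulk RNA, a smaller share of cells with a transcript and less of it per cell cannot be told apart either.

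The 250 bases before the start of CCN2 and of AMOTL2, another listed target with non-overlapping groups, are shown because both hold the letters CATTCC (or GGAATG, the same on the other strand), the core that TEAD factors bind. Sequences are from RefSeq on GRCh38.p14, written along the gene from 5′ to 3′, with CATTCC or GGAATG in capitals. CCN2 is on the minus strand at chr6:131951373-131951622 and has the motif 3 times; AMOTL2 is on the minus strand at chr3:134374448-134374697 and has it 1 time.
CCN2: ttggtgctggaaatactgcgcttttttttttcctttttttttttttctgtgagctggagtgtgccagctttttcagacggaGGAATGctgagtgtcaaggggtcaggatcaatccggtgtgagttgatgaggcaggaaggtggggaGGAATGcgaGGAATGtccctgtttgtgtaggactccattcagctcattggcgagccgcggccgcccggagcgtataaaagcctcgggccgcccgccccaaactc
AMOTL2: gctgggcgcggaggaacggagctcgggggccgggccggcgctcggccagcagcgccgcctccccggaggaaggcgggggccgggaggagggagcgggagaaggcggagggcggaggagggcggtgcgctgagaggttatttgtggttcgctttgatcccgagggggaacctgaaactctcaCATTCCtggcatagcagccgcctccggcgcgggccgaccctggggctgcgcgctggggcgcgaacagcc
Of the 22 listed YAP-TAZ targets 16 were matched in the promoter table, and 9 of these windows (56.25%) held the motif, beside 4175 of all 35116 promoter windows of that length (11.9%). Besides CCN2 and AMOTL2 these were ANKRD1, AJUBA, AXL, PTPN14, FOXF2, TGFB2 and NUAK2. F3, a listed target with non-overlapping groups, was not among the 9. The list was written as one of known YAP-TAZ targets, so its share of the motif describes the list and not these cultures. AXL was close in both cultures, and whether the motif goes with a culture difference was not tested. The SMAD box CAGACA, searched on both strands with no overlap with the other motif, was in 1 of the 16 matched promoters of 20 TGF-beta targets (6.25%) and in 4778 of all (13.6%). It was in 4 of the 16 YAP-TAZ promoters (25%), and CATTCC was in 2 of the 16 TGF-beta promoters (12.5%). These are matches of letters within 250 bases, and no count of binding comes from them.

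Of the 21 YAP-TAZ targets tested, 0 were called, 4 had an unadjusted p under 0.05 and all 4 of these were higher in 3D, beside 1.03% of all genes. Of the 21, 14 lay above 0, beside 49.3% of all genes, and the median log2 fold change was 0.08 beside -0.002 over all genes tested. Within pairs the list median was 0.18, 0.16 and -0.01 for numbers 1, 2 and 3. ANKRD1, the remaining listed target, did not pass the filter on low counts. CCN1, the matricellular relative of CCN2 (ENSG00000142871.17; chromosome 1, 85580761 to 85583950 on hg38, plus strand), was at 28.8, 39.8 and 17.8 CPM in 3D, against 18.0, 13.7 and 11.4 CPM in 2D. Each pair was higher in 3D, by 0.67, 1.54 and 0.65 on the log2 scale for numbers 1, 2 and 3, while the lowest 3D library lay just below the highest 2D library. F3, tissue factor, which starts blood clotting, was at 87.2, 104 and 100.4 CPM in 3D, against 66.6, 52.2 and 60.2 CPM in 2D, with no overlap between the cultures. AMOTL2, a junction scaffold that binds YAP, was at 123, 126 and 104 CPM in 3D, against 89.7, 67.9 and 91.3 CPM in 2D, again with no overlap. Their log2 fold changes were 0.97 (SE 0.24), 0.74 (SE 0.24) and 0.49 (SE 0.19), and none passed after adjustment (edgeR adjusted p = 1 for each). Other listed targets were close: AXL, a receptor tyrosine kinase, averaged 47.2 ± 14.4 CPM in 3D, against 44.6 ± 9.24 CPM in 2D (SD, n = 3 each), and TEAD1, one of the DNA-binding partners of YAP, 90.1 ± 28.5 and 94.4 ± 33.1 CPM in that order. For TEAD1 the 95% interval of the log2 fold change was -0.42 to 0.30.

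PMEPA1 and SNAI2, from the TGF-beta list, were level in number 1 and far apart in numbers 2 and 3. PMEPA1, a membrane protein that restrains TGF-beta signalling (ENSG00000124225.16; chromosome 20, 57648394 to 57711536 on hg38, minus strand), was at 56.4, 226 and 128 CPM in 3D, against 56.8, 41.1 and 33.7 CPM in 2D, so number 1 was level and the 3D libraries of numbers 2 and 3 were high, with overlapping groups. Its log2 fold change was 1.62 (SE 0.40, 95% interval 0.76 to 2.48; edgeR adjusted p = 1), and without the 3D library of replicate 1 it was 2.12 (edgeR adjusted p = 0.0320). Without the 3D library of replicate 2 it was 1.23. SNAI2, the repressor Slug of the epithelial to mesenchymal transition (ENSG00000019549.13), was at 30.3, 67.9 and 53.5 CPM in 3D, against 31.7, 18.8 and 19.3 CPM in 2D. Within pairs the SNAI2 differences were -0.06, 1.85 and 1.47 on the log2 scale for numbers 1, 2 and 3. Its fitted log2 fold change was 1.17 (SE 0.27; edgeR adjusted p = 1), 1.58 without the 3D library of replicate 1 (edgeR adjusted p = 0.00816) and 1.67 without both libraries of number 1 (edgeR adjusted p = 0.0193), and it was 1.17 with DESeq2 (adjusted p = 0.0469). Without the 3D library of replicate 2 it was 0.84 (edgeR adjusted p = 1), and without 2D replicate 2 or 3 it was 1.03 and 1.08.

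SKIL and SMAD7, which inhibit the pathway, were higher in 3D in each pair, by the least in number 1. SKIL, the SMAD co-repressor SnoN, was at 22.1, 53.3 and 20.6 CPM in 3D, against 19.4, 20.0 and 6.93 CPM in 2D, and SMAD7, which blocks the receptor, was at 9.31, 23.9 and 8.18 CPM in 3D, against 7.77, 9.68 and 5.19 CPM in 2D. SKIL did not overlap between the cultures, by a narrow margin, and SMAD7 did. SMAD6, the inhibitory SMAD of the BMP branch, was at 1.52, 3.95 and 1.12 CPM in 3D, against 1.60, 0.673 and 0.677 CPM in 2D, high in the 3D library of number 2. ID3, a BMP-induced inhibitor of helix-loop-helix factors, was at 103, 142 and 135 CPM in 3D, against 110.5, 54.4 and 95.5 CPM in 2D, with its lowest value in the 2D library of number 2.

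As a list, 8 of the 20 TGF-beta targets tested had an unadjusted p under 0.05, all higher in 3D (among them CCN2, SNAI2, PMEPA1, SKIL and SMAD7), and 0 were called. Over all genes 1.03% were higher at that p. Of the 20, 16 lay above 0, beside 49.3% of all genes; the median log2 fold change was 0.26, and within pairs the median was 0.02, 0.63 and 0.24 for numbers 1, 2 and 3, beside medians of 0.00 for each pair over all genes tested. The list also holds targets that were close in both cultures. FN1, fibronectin, was at 290.3, 378 and 104 CPM in 3D, against 275, 406 and 135 CPM in 2D, and TGFBI, a TGF-beta-induced matrix protein, at 2315, 2062 and 1309 CPM in 3D, against 2341, 1831 and 1419 CPM in 2D; the log2 fold changes were -0.12 and 0.01. Of 11 BMP and ID genes tested, 3 had an unadjusted p under 0.05, all higher in 3D (ID3, SMAD9 and SMAD6), with a list median of 0.22 and pair medians of -0.05, 0.47 and 0.19.

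**Figure D2:**
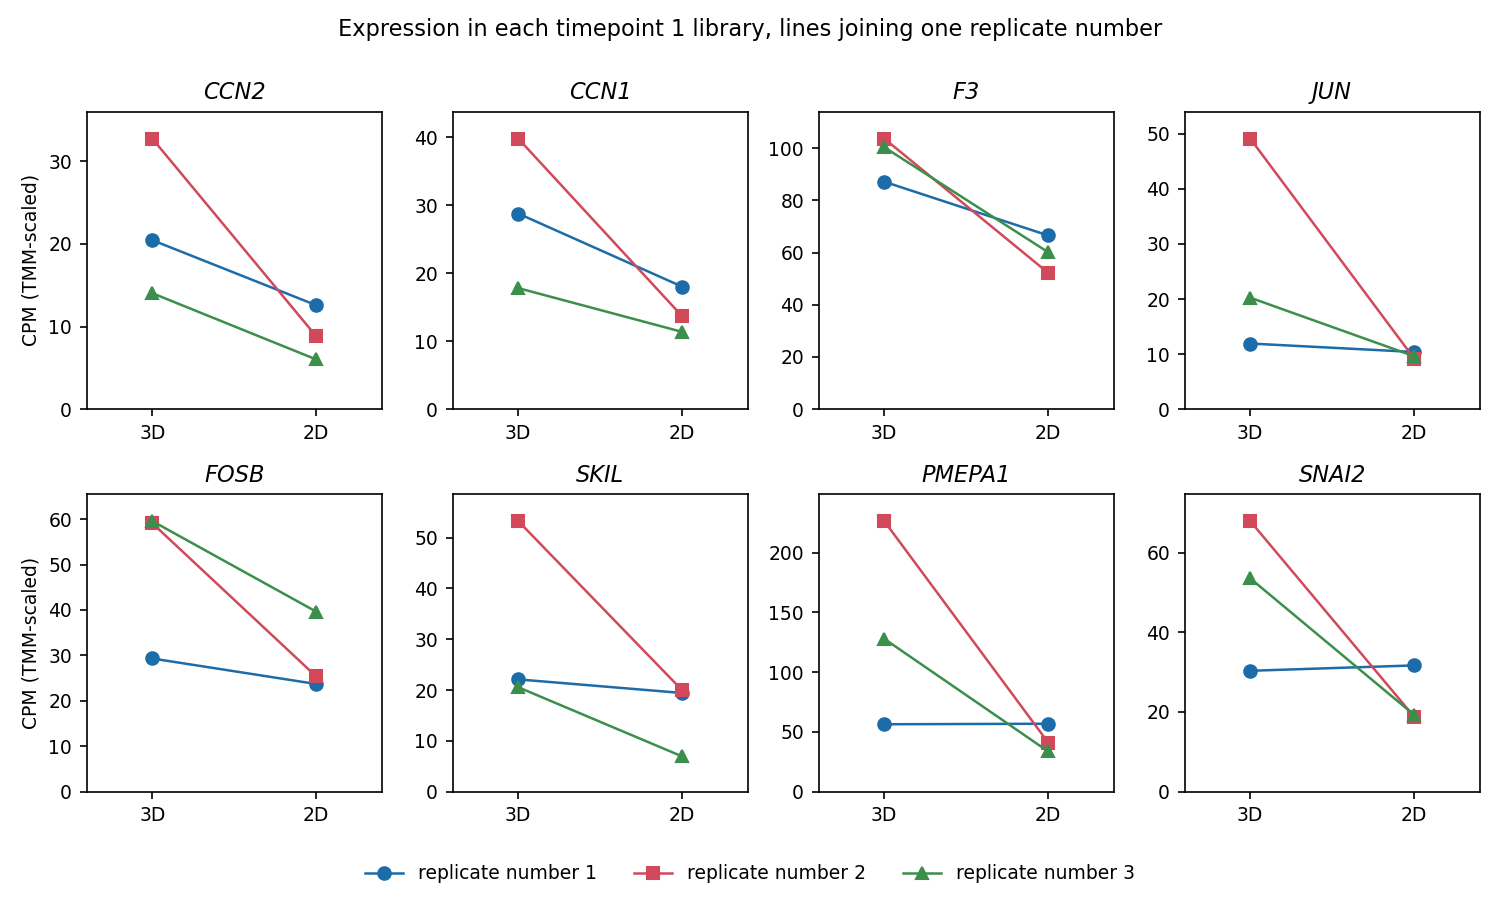
TMM-scaled CPM of 8 genes in the 6 timepoint 1 libraries, 3D on the left and 2D on the right of each panel, each axis from 0, with lines joining the libraries of one replicate number. For CCN2, CCN1 and F3 all 3 lines slope down towards 2D, while for PMEPA1 and SNAI2 the line of number 1 is level (56.4 against 56.8 CPM for PMEPA1) and the other 2 are steep.

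Of the 26 immediate early genes tested, 5 had an unadjusted p under 0.05, all higher in 3D (1.03% of all genes), 17 lay above 0 (49.3% of all genes), and 0 were called; the list median was 0.08. JUN, an AP-1 subunit (ENSG00000177606.6; chromosome 1, 58780788 to 58784327 on hg38, minus strand), was at 11.9, 49.1 and 20.2 CPM in 3D, against 10.4, 9.19 and 9.61 CPM in 2D. The 2D libraries were close to each other, and all 3D libraries were above them, that of number 2 by the most; the log2 fold change was 1.35 (SE 0.34; edgeR adjusted p = 1). Without the 3D library of replicate 2 it was 0.85, and without that of replicate 1 it was 1.78 (edgeR adjusted p = 1 and 0.0320). FOSB, its AP-1 partner (ENSG00000125740.14; chromosome 19, 45467996 to 45475179 on hg38, plus strand), was at 29.3, 59.1 and 59.6 CPM in 3D, against 23.7, 25.4 and 39.6 CPM in 2D, higher in 3D in each pair with overlapping groups.

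JUNB, another AP-1 subunit, was at 93.0, 210.0 and 141 CPM in 3D, against 89.7, 105 and 98.7 CPM in 2D. KLF10, a zinc finger factor induced by TGF-beta, was at 40.6, 68.2 and 56.1 CPM in 3D, against 31.8, 40.7 and 42.2 CPM in 2D. IER3, an early response gene that modulates survival, was at 22.5, 34.2 and 36.2 CPM in 3D, against 21.1, 23.1 and 23.9 CPM in 2D. All 3 were higher in 3D in every pair, by the least in number 1. FOS and EGR1, classic serum-response genes, were close: FOS was at 64.2, 105 and 84.1 CPM in 3D, against 64.1, 89.8 and 77.7 CPM in 2D (log2 fold change 0.12, 95% interval -0.14 to 0.37), and EGR1 at 36.0, 55.7 and 46.9 CPM in 3D, against 31.5, 54.4 and 48.6 CPM in 2D (log2 fold change 0.04, interval -0.36 to 0.44). MYC was at 919, 688 and 915 CPM in 3D, against 879.8, 711 and 861 CPM in 2D.

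The MAP kinase feedback genes did not share a direction, with 9 of 18 above 0, 9 below and a median of -0.0001. At an unadjusted p under 0.05, 1 was higher and 3 were lower, beside 1.03% and 1.05% of all genes. In all 3 pairs 2 were higher and 6 lower, beside 11.6% and 12.3% of all genes. DUSP4, a nuclear ERK phosphatase, was at 31.2, 42.3 and 47.3 CPM in 3D, against 32.4, 24.8 and 28.5 CPM in 2D, and DUSP5, another, at 7.97, 4.94 and 5.41 CPM in 3D, against 8.04, 7.54 and 9.47 CPM in 2D. In both genes number 1 was level and numbers 2 and 3 differed, upwards for DUSP4 and downwards for DUSP5. ERRFI1, a feedback inhibitor of the EGF receptor, was lower in 3D by nearly the same amount in each pair, -0.22, -0.21 and -0.21 on the log2 scale (edgeR adjusted p = 1). NRG1, a ligand of ERBB receptors, was at 6.03, 7.03 and 17.1 CPM in 3D, against 4.86, 2.96 and 9.71 CPM in 2D, higher in each pair.

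A rule that took, among genes with one sign in all 3 pairs and a mean count of at least 50, the 12 with the smallest unadjusted p in each direction named CCN2, CCN1, JUN and FOSB with 8 others higher in 3D. One sign in all pairs is common by itself: it held for 2161 higher (11.6%) and 2293 lower genes (12.3%). LBH, a transcription regulator of limb, heart and mammary development, was at 0.655, 3.66 and 2.44 CPM in 3D, against 0.491, 0.421 and 0.150 CPM in 2D, and IL11, a cytokine of the IL-6 family, at 0.378, 1.81 and 1.25 CPM in 3D, against 0.363, 0.219 and 0.165 CPM in 2D. Both were far apart in numbers 2 and 3 and nearly level in number 1, at low levels. Their log2 fold changes were 2.86 (SE 0.68) and 2.15 (SE 0.55).

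TUBA4A, an alpha-tubulin, was at 130.1, 192 and 264 CPM in 3D, against 126, 97.2 and 131 CPM in 2D, and PDGFA, a growth factor for mesenchymal cells, at 11.2, 18.8 and 16.2 CPM in 3D, against 10.7, 8.25 and 10.0 CPM in 2D. PHLDB1, a pleckstrin homology domain protein, was at 59.6, 99.7 and 65.5 CPM in 3D, against 58.4, 45.7 and 38.2 CPM in 2D. BNC1, basonuclin, a zinc finger protein of basal epithelial cells, was at 62.4, 91.4 and 74.4 CPM in 3D, against 56.6, 58.5 and 54.3 CPM in 2D. In all 4 the 3D libraries of numbers 2 and 3 were above every 2D library. ADAMTS15, a secreted metalloprotease, and DLX1, a homeobox factor, had log2 fold changes of 1.07 and 0.88. Over the 12 genes the median pair difference was 0.17 in number 1, 1.32 in number 2 and 0.97 in number 3, and number 1 had the smallest difference for 11 of the 12; these genes were selected by this contrast, so the values describe them and test nothing.

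The 12 genes lower in 3D had like medians in the 3 pairs, -0.83, -0.79 and -0.83 for numbers 1, 2 and 3. GAD1, the decarboxylase that makes GABA from glutamate (ENSG00000128683.14; chromosome 2, 170816912 to 170842759 on hg38, plus strand), was at 1.15, 1.55 and 1.88 CPM in 3D, against 2.45, 2.32 and 4.39 CPM in 2D, with no overlap, as for 342 of the genes tested in this direction (1.84%). It had the smallest p of all genes tested (log2 fold change -0.98, SE 0.17, 95% interval -1.34 to -0.62; edgeR adjusted p = 0.809; DESeq2 adjusted p = 0.00193). AP3B2, a neuronal subunit of the AP-3 sorting adaptor, was at 2.27, 3.78 and 4.07 CPM in 3D, against 4.51, 6.18 and 7.50 CPM in 2D, and L3MBTL1, a reader of methylated histones, at 2.17, 3.95 and 2.56 CPM in 3D, against 6.86, 7.09 and 7.28 CPM in 2D. Neither overlapped between the cultures.

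Among better expressed genes, TXNIP, an arrestin-fold protein that binds thioredoxin and restrains glucose uptake, was at 230.4, 183 and 179.8 CPM in 3D, against 265, 341 and 295 CPM in 2D. All 3D libraries were below all 2D libraries, and the log2 fold change was -0.60 (SE 0.17; edgeR adjusted p = 1). SLC27A1, a fatty acid transporter, was at 4.11, 4.73 and 4.27 CPM in 3D, against 5.66, 7.96 and 8.93 CPM in 2D, and SLC25A25, a mitochondrial carrier of ATP-Mg and phosphate, at 26.8, 24.7 and 24.7 CPM in 3D, against 28.2, 35.1 and 42.4 CPM in 2D. The remaining genes were at low levels. SBSN, suprabasin of the epidermis, had pair differences of -0.68, -0.94 and -1.43. TP73, of the p53 family, had -1.37, -0.48 and -0.33. KDM4A-AS1, an antisense RNA that shares 464 exonic bases with KDM4A and cannot be told apart from it there, had a log2 fold change of -0.61; BRSK2, a polarity kinase, had -1.23 and RDM1, which binds nucleic acid through a RAD52-type motif, -0.78.

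**Figure D3:**
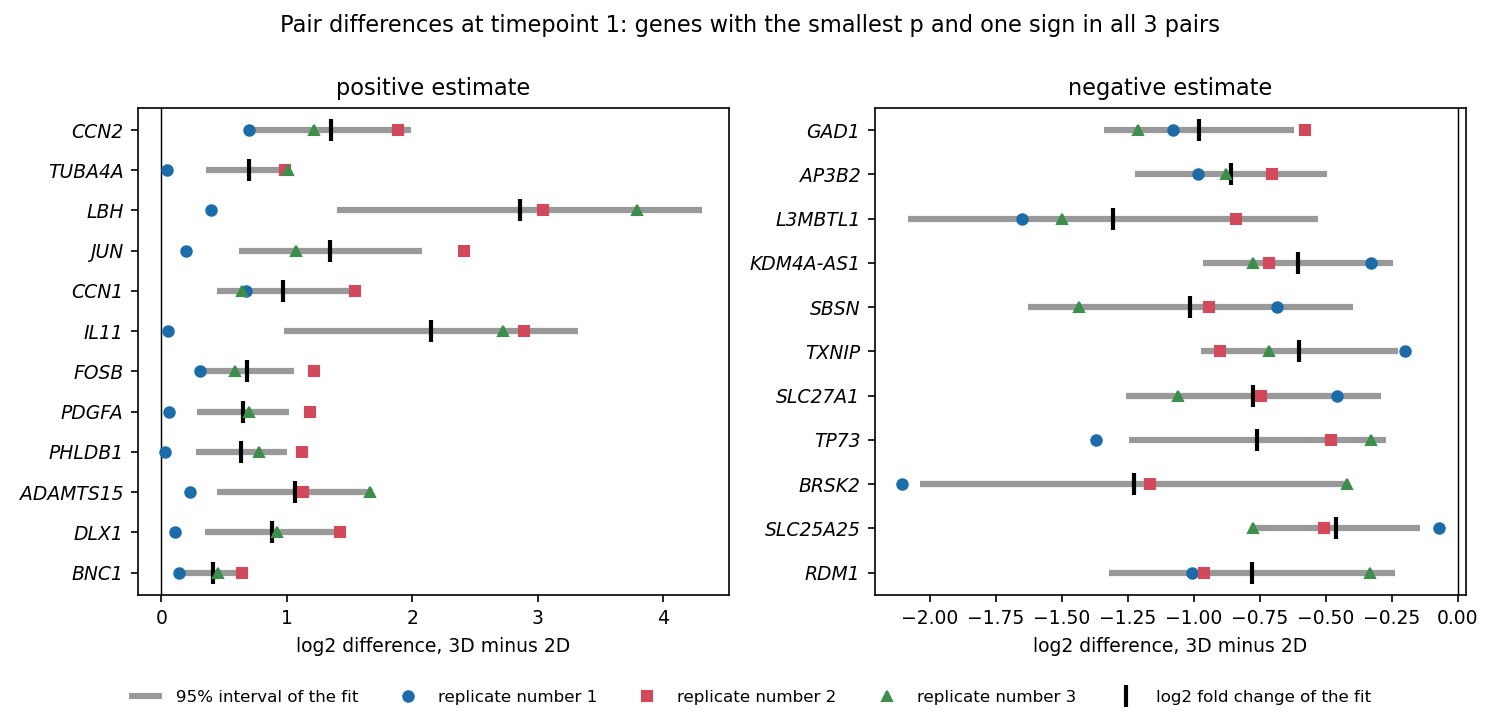
Log2 difference in each pair (3D minus 2D, points by replicate number), fitted log2 fold change (black bar) and its 95% interval (grey) for genes named by the rule on the smallest unadjusted p, 12 higher and 11 lower in 3D. On the left the points of number 1 lie nearest 0 for 11 of 12 genes; on the right the 3 pairs mix. The genes were selected by this contrast and none passed after adjustment.

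Of the listed endoplasmic reticulum stress genes, which the title of the series puts in view, 0 were called, and most were close in both cultures. HSPA5, the chaperone BiP, was at 194, 211 and 95.8 CPM in 3D, against 174, 217 and 112 CPM in 2D, and the pairs went both ways; the 95% interval of its log2 fold change was -0.44 to 0.39. ATF4, the transcription factor of the integrated stress response, was at 186, 145 and 300.2 CPM in 3D, against 188, 140.2 and 298 CPM in 2D, with pair differences of -0.02, 0.04 and 0.01 on the log2 scale. XBP1, which IRE1 splices, was slightly higher in each 3D library of a pair, 117, 107 and 120.4 CPM against 107, 85.8 and 107 CPM, with overlapping groups (log2 fold change 0.21, interval -0.04 to 0.45). DDIT3, the factor CHOP, was lower in numbers 2 and 3 and higher in number 1 by 0.11, and its interval was -0.52 to 0.16. All 20 listed ATF6 targets and chaperones and all 20 IRE1-XBP1 targets had intervals within 2-fold, and 24 of 25 PERK-ATF4 targets did. Over these lists 1 member had an unadjusted p under 0.05, beside 2.09% of all genes. It was CEBPG, a dimer partner of ATF4, with a log2 fold change of 0.24.

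Filamins and the actomyosin system were also mostly close, with 0 members at an unadjusted p under 0.05 and a median of -0.01. Of 32 tested members 31 had intervals within 2-fold, beside 72.2% of all genes. With a filter at a mean count of at least 50, 12741 of 13573 genes had such intervals. FLNA, the actin cross-linker filamin A, was at 2326, 2746 and 1749 CPM in 3D, against 2284, 2544 and 2061 CPM in 2D. Numbers 1 and 2 were within 0.11 on the log2 scale and number 3 was lower in 3D, with -0.24. MYH9, non-muscle myosin heavy chain, averaged 338 ± 44.1 CPM in 3D against 355 ± 60.1 CPM in 2D, ACTB, beta-actin, 9693 ± 1897 and 9622 ± 2391 CPM, and VCL, vinculin, 196 ± 14.8 and 208 ± 2.98 CPM, 3D before 2D in each (SD, n = 3 each).

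The receptors for laminin and the cells' own laminin did not pass either. ITGB1, the integrin beta chain shared by many matrix receptors, averaged 302 ± 86.1 CPM in 3D, against 288 ± 103 CPM in 2D; ITGA6 averaged 213 ± 52.4 and 200.4 ± 67.6 CPM and ITGB4, its hemidesmosome partner, 839 ± 145 and 853 ± 76.1 CPM, 3D before 2D (SD, n = 3 each). The list of integrin subunits also holds DAG1 and DDR1, which are matrix receptors of other families. Of its 14 members 11 lay above 0, with a median of 0.06, which lay below 0 without both libraries of number 1. ITGB6, a chain of an integrin that can free latent TGF-beta, was at 33.0, 42.9 and 34.8 CPM in 3D, against 32.7, 32.1 and 22.9 CPM in 2D, apart by a narrow margin, with an edgeR unadjusted p of 0.116. LAMB3, a chain of laminin-332, had a log2 fold change of 0.31. All 14 laminin and hemidesmosome genes had intervals within 2-fold, beside 72.2% of all genes. PLAU, urokinase, a protease that activates plasminogen, was at 116, 148 and 110.1 CPM in 3D, against 102, 96.2 and 97.1 CPM in 2D, higher in each pair without overlap (edgeR unadjusted p = 0.0728).

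No marker of epithelial identity passed the test, and their intervals were narrow. KRT5, the basal keratin, averaged 5818 ± 1869 CPM in 3D, against 5921 ± 2091 CPM in 2D, KRT14 131 ± 85.8 and 118 ± 84.2 CPM, and KRT17 2639 ± 1379 and 2527 ± 1438 CPM, 3D before 2D (SD, n = 3 each); these keratins have close relatives, so their counts are uncertain. Their large SDs come from number 3, in which both cultures were high. All 15 identity markers had intervals within 2-fold, beside 72.2% of all genes. TP63, the basal lineage factor p63, was higher in each pair, by 0.20, 0.33 and 0.27 on the log2 scale (edgeR unadjusted p = 0.0551), and CDH1, E-cadherin, lower, with -0.09, -0.25 and -0.38 (edgeR unadjusted p = 0.265). KLF5, a factor of epithelial growth, was at 83.1, 66.5 and 75.4 CPM in 3D, against 76.9, 105 and 103 CPM in 2D, lower in numbers 2 and 3. Of 21 basal and squamous differentiation genes tested, 11 lay above 0 and 10 below. At an unadjusted p under 0.05, 1 was higher and 2 were lower, beside 1.03% and 1.05% of all genes. The 2 lower ones encode cornified envelope proteins, were at low levels and were lower in each pair: SPRR2A was at 0.239, 0.361 and 0.676 CPM in 3D, against 0.437, 0.741 and 1.62 CPM in 2D, and SPRR1B at 0.189, 0.271 and 1.17 CPM in 3D, against 0.320, 0.438 and 1.74 CPM in 2D.

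Several growth and metabolism lists had all their intervals within 2-fold. All 25 G1-S and DNA replication genes, all 37 cytosolic ribosomal protein genes (which have many processed copies, so single members are uncertain), all 27 nuclear oxidative phosphorylation genes, all 20 MYC and ribosome biogenesis genes and all 24 tested cholesterol and fatty acid synthesis genes had intervals within 2-fold, beside 72.2% of all genes. Genes with low counts, whose intervals are wider, lower that share. With a filter at a mean count of at least 50, 12741 of 13573 genes had such intervals. Within 1.5-fold lay the intervals of 14 of the 37 ribosomal protein genes, beside 50.3% of all genes. Of 25 G2-M and mitosis genes, 22 had intervals within 2-fold and 10 within 1.5-fold. Of the G1-S genes, 22 of 25 lay above 0, and of the ribosomal protein genes 31 of 37 lay below 0. Their medians were 0.03 and -0.03, and 49.3% of all genes lay above 0. Within pairs the G1-S median was 0.03, 0.09 and 0.04 for numbers 1, 2 and 3. The ribosomal protein median was -0.12, 0.005 and 0.03, below 0 in number 1 only. Leaving out single libraries gave ribosomal protein medians of -0.37 to 0.26. CCND1, cyclin D1, a gene of the G1 phase, was at 87.6, 99.2 and 96.6 CPM in 3D, against 75.0, 76.3 and 81.7 CPM in 2D, higher in 3D with no overlap but with a log2 fold change of 0.28. Among the narrowest intervals of listed genes with a mean count of at least 50 were those of MTHFD2, a mitochondrial folate enzyme (-0.21 to 0.17), BAG3, a co-chaperone (-0.07 to 0.31), NFKB1, an NF-kappaB subunit (-0.09 to 0.30) and UNG, the uracil DNA glycosylase (-0.18 to 0.22). Of 17 glycolysis and hypoxia genes, 5 lay above 0 and 12 below, all with intervals within 2-fold. At an unadjusted p under 0.05, 2 were higher, beside 1.03% of all genes. These were PFKFB3, a regulator of glycolysis, and ADM, adrenomedullin, with log2 fold changes of 0.31 and 0.41. ANGPTL4, a lipase inhibitor, was at 617, 1082 and 749.5 CPM in 3D, against 638, 519.7 and 514 CPM in 2D, the same order of pairs as PMEPA1.

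**Figure D4:**
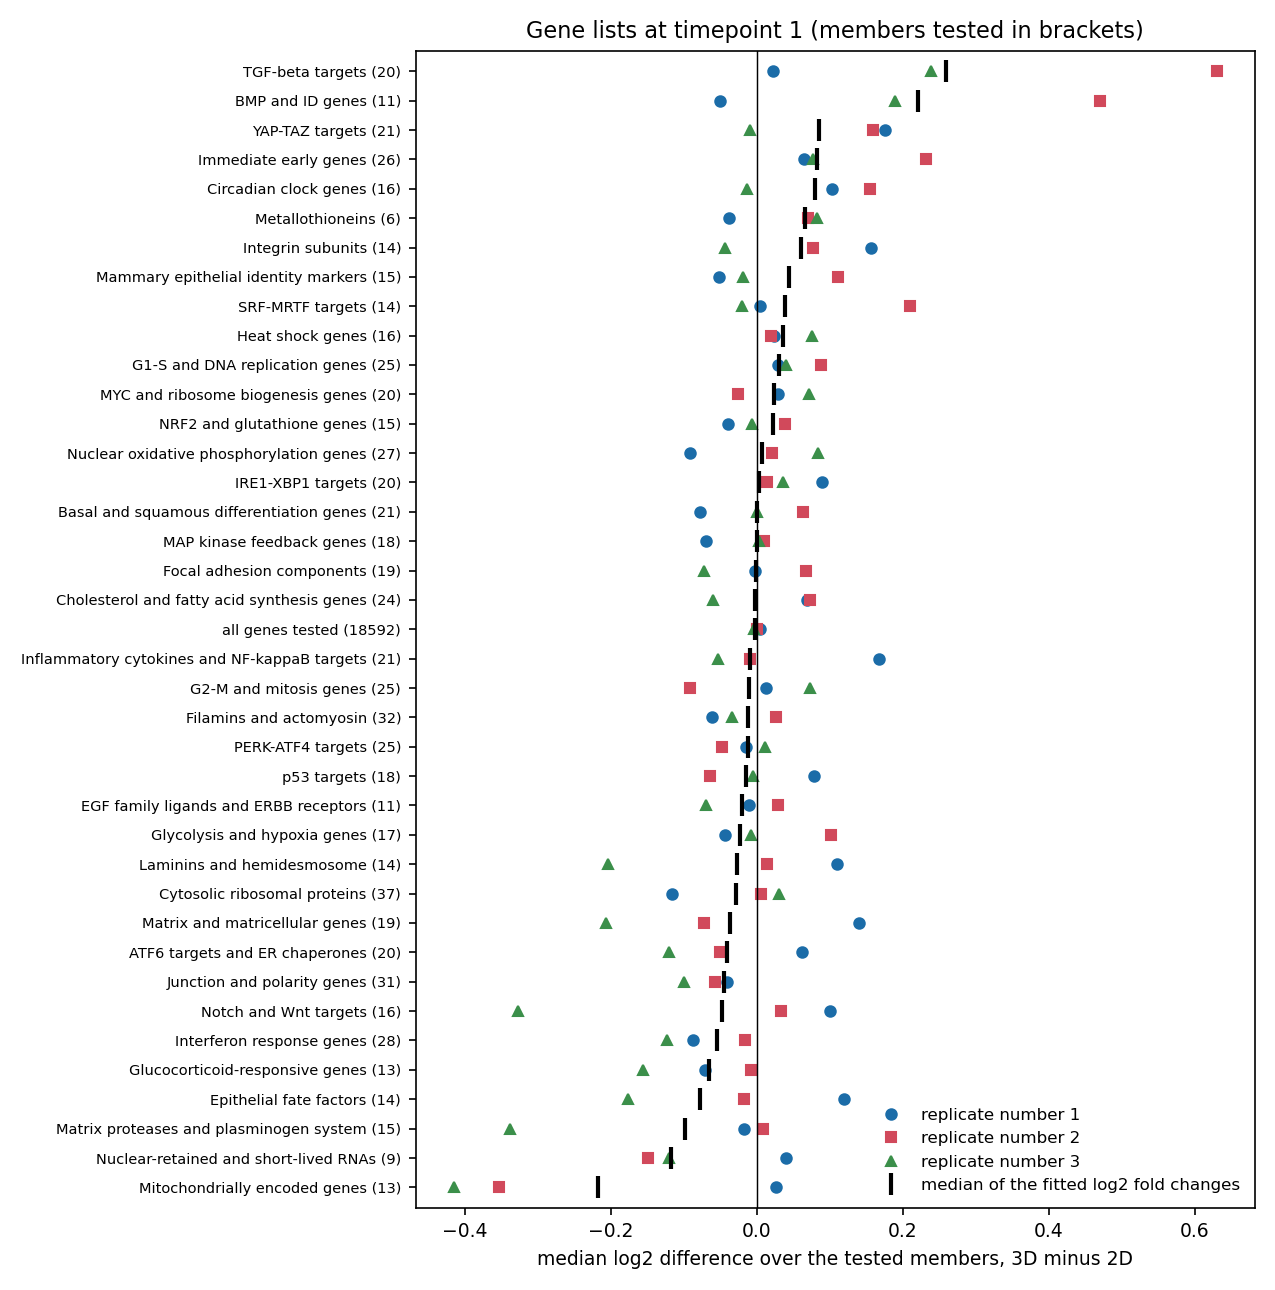
Median log2 difference over the tested members of the gene lists at timepoint 1 (marker lists of other cell types are not drawn), in each pair (points, 3D minus 2D) and over the fitted log2 fold changes (black bars), sorted by the fitted median, with the number of tested members in brackets. TGF-beta targets lie highest (0.26) and mitochondrially encoded genes lowest (-0.22), and in both the point of number 1 is near 0.

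Clock genes, which can be set by medium changes and hydrocortisone, held 2 repressors lower in 3D without overlap, PER3 and CIART, the latter by a narrow margin. Another clock gene, 1 of the 16, was higher without overlap. Over all genes 1.84% were lower and 1.43% higher without overlap. Of the 16 clock genes 10 lay above 0, beside 49.3% of all genes. At an unadjusted p under 0.05, 2 were higher and 2 lower, beside 1.03% and 1.05% of all genes. PER3 was at 0.378, 0.400 and 0.561 CPM in 3D, against 0.736, 0.859 and 1.01 CPM in 2D, and CIART at 4.23, 2.42 and 3.27 CPM in 3D, against 5.93, 4.24 and 4.89 CPM in 2D. BHLHE40, another repressor of the clock, was higher in numbers 2 and 3 only, at 31.2, 70.6 and 51.5 CPM in 3D, against 33.1, 31.7 and 37.7 CPM in 2D. NRARP, a Notch target and feedback inhibitor, was higher in each pair, at 8.49, 9.98 and 4.77 CPM in 3D, against 5.60, 4.58 and 3.53 CPM in 2D. None of these passed after adjustment (edgeR adjusted p = 1 for each).

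The test of the culture difference at a later harvest minus that at timepoint 1 asks whether a later difference is unlike the early one. With edgeR, 243 genes (1.31%) passed for timepoint 2 and 290 (1.56%) for timepoint 3. The difference was positive for 144 (0.775%) and 100 (0.538%) of them and negative for 99 (0.532%) and 190 (1.02%), but these counts depend on how the fit is made: without the replicate block they were 0 and 34, with all 18 libraries 29 and 0, and without both timepoint 1 libraries of number 1 they were 14 and 59. Leaving out single timepoint 1 libraries gave 54 (without 3D replicate 1) to 724 (without 3D replicate 3) for timepoint 2 and 92 (without 3D replicate 1) to 332 (without 2D replicate 3) for timepoint 3. At timepoint 3 the 2D culture entered with 2 libraries. ELF3, an ETS factor of epithelial differentiation that shares 664 exonic bases with ELF3-AS1, was at 79.1, 59.9 and 101 CPM in 3D, against 62.4, 56.5 and 126 CPM in 2D at timepoint 1. There its log2 fold change was 0.05, while it was -3.75 at timepoint 2 and -4.12 at timepoint 3, and both interactions passed (edgeR adjusted p = 0.00265 and 0.000982). CLDN4, a claudin of tight junctions, had pair differences of -0.37, -0.26 and -0.45 at timepoint 1, with a log2 fold change of -0.36, beside -3.19 and -3.22 later. CLDN1 had -0.28 at timepoint 1 with each pair below 0, beside -1.79 and -2.08. OCLN, occludin, had -0.28 at timepoint 1, with number 1 level, beside -3.27 and -2.09.

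FOSB, ATF3, JUN, FOS and DDIT3 each had an interaction that passed at timepoint 2 or 3, and none of their timepoint 1 differences passed the test. FOSB had a log2 fold change of 0.68 at timepoint 1, -2.25 at timepoint 2 and -3.05 at timepoint 3, and both interactions passed (edgeR adjusted p = 0.000378 and 3.95e-05). ATF3, a stress-induced factor, was at 13.1, 10.9 and 24.3 CPM in 3D, against 9.39, 9.51 and 18.8 CPM in 2D at timepoint 1, higher in each pair; its log2 fold changes were 0.36, -2.02 and -4.29 over the 3 harvests. JUN had 1.35, -0.17 and -1.71, and the interaction passed at timepoint 3 (edgeR adjusted p = 0.0122) and not at timepoint 2 (edgeR adjusted p = 0.129). FOS was level at timepoint 1 (0.12) and lower at timepoint 3 (-1.58; interaction, edgeR adjusted p = 0.000982). DDIT3 had a negative estimate at both ends, with -0.18 at timepoint 1 and -2.10 at timepoint 3 (interaction, edgeR adjusted p = 0.00239).

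For the TGF-beta and YAP-TAZ targets the interactions did not pass, except for TGFBI. SNAI2 had log2 fold changes of 1.17, 1.04 and 0.97 over the 3 harvests, and at timepoint 2 it passed (edgeR adjusted p = 0.0212). CCN2 had 1.35, 0.40 and -0.13, with edgeR adjusted p of 0.282 and 0.162 for the interactions, so a difference between harvests was not shown for it. TGFBI had 0.01, 1.18 and 1.08, and both interactions passed (edgeR adjusted p = 0.0198 and 0.0318). TXNIP was lower by similar amounts throughout, with -0.60, -0.67 and -0.78, and passed at timepoints 2 and 3 (edgeR adjusted p = 0.0205 and 0.0223). GAD1 had -0.98, 0.39 and 0.43, and both interactions passed (edgeR adjusted p = 0.0175 and 0.0159).

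Genes called at timepoint 2 come from the same fit, which favours genes with a small error. The 1674 genes that rose in 3D at timepoint 2 had a median log2 fold change of 0.02 at timepoint 1, and the 1275 that fell had one of -0.06. At an unadjusted p under 0.05 and in the same direction, 17 (1.02%) of those that rose and 34 (2.67%) of those that fell differed at timepoint 1, beside 1.03% and 1.05% of all genes. CKS2, a mitotic cyclin kinase subunit, was at 11.1, 8.91 and 12.1 CPM in 3D, against 12.6, 9.71 and 10.2 CPM in 2D at timepoint 1 and had log2 fold changes of -0.04, 1.62 and 1.33.

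**Figure D5:**
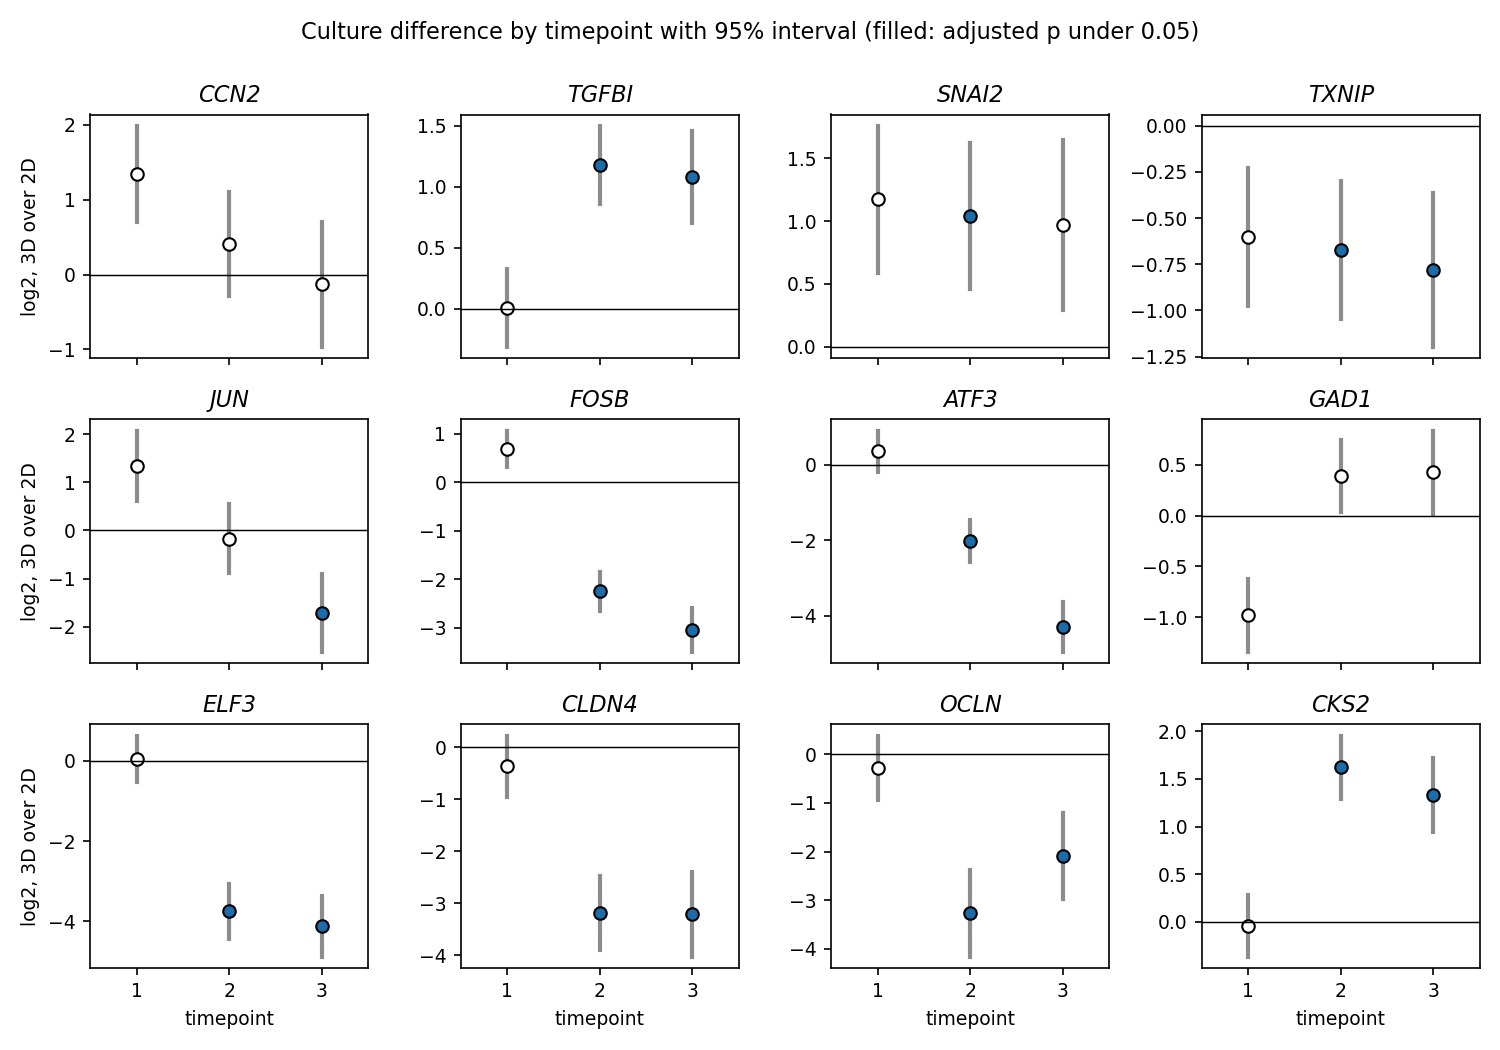
Fitted log2 fold change, 3D over 2D, with its 95% interval at timepoints 1, 2 and 3 for 12 genes, each panel on its own scale, with filled points at an edgeR adjusted p under 0.05. No timepoint 1 point is filled; FOSB lies above 0 at timepoint 1 (0.68) and below it later, ELF3 lies near 0 (0.05) and then at -3.75 and -4.12, and TXNIP lies below 0 at all 3.

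The authors' deposited table for timepoint 1 holds 13677 genes and no adjusted p under 0.05, the smallest being 1.00. It has 102 genes at an unadjusted p under 0.05, 53 higher and 49 lower in 3D, and 95 of these also had one here with the same sign. In the authors' deposited table AL133346.1, which overlaps CCN2, ranks first by p with a log2 fold change of 1.35, followed by L3MBTL1 (-1.33) and SNAI2 (1.07), and CCN2 ranks 6 (1.26).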

How the data were processed

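The series measured polyadenylated RNA of MCF10A cells by sequencing in 18 libraries. The authors deposited raw counts per gene, a log2 CPM table with library totals in its headers and, per timepoint, a table of limma log2 fold changes, p-values and t and B scores; reads were aligned with STAR 2.7.1a to hg38, with HOMER, edgeR and limma also named, per the submitters' processing notes. The sources used here name neither strand use nor annotation. From the deposited counts, edgeR 4.0.16 in R 4.3.3 (filterByExpr, TMM, quasi-likelihood F test, Benjamini-Hochberg adjustment) fitted 17 libraries with 6 culture and time groups and the replicate number as a block; 2D replicate 1 of timepoint 3 was left out, as its labels name only the raw counts. Of 60662 genes in the table, 18592 were tested. The replicate numbers pair the samples, since each number carries a date in the labels shared by all groups; deviations of same-numbered libraries correlated at 0.64, 0.73 and 0.80. An SE is the log2 fold change divided by the square root of F. Pair differences use log2 CPM with a prior count of 2. Summed counts exceed the header totals, so neither gives an exact depth.

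Members and lists were chosen with earlier results of these data known. Genes named are the 12 with the smallest unadjusted p in each direction (one sign in all pairs, mean count of at least 50), up to 3 per list, up to 6 per direction for each interaction, the 10 with the narrowest intervals and 25 fixed genes; AMOTL2, SKIL, SMAD7, KLF10, CIART, MYC, FN1, TGFBI, TEAD1 and AXL were chosen after their values were seen; some genes the rule names are not reported here. Alternatives were DESeq2 1.42.0, limma-voom (limma 3.58.1), other scaling, filters, libraries and no block; leaving out number 1 was chosen after seeing the data. The fits were tested on simulated data.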

Additional observations from a re-analysis of the deposited data

Results flagged for a closer look

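The culture difference at a later harvest minus that at timepoint 1 passed the interaction test (edgeR, adjusted p under 0.05) for 19 of the 112 named genes at timepoint 2, beside 1.31% of all genes, and for 26 at timepoint 3, beside 1.56%. Many of them were named for the size of their interaction. Each value below is that difference of log2 fold changes, a positive one meaning a higher 3D over 2D ratio at the later harvest. The 2D culture of timepoint 3 entered with 2 libraries.

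At timepoint 2 the 3D over 2D ratio was higher than at timepoint 1 for RGMB-AS1 (3.40), NOX5 (2.16), SFTA1P (1.76), RDM1 (1.66), CKS2 (1.66), GIHCG (1.44), GAD1 (1.37), RPL22L1 (1.30), PFDN4 (1.23), TGFBI (1.17) and FEN1 (0.70). It was lower for ELF3 (-3.80), USP2 (-3.19), OCLN (-2.99), FOSB (-2.93), CLDN4 (-2.83), CYP4F12 (-2.79), ATF3 (-2.38) and CLDN1 (-1.51). The junction genes CLDN1, CLDN4 and OCLN and the epithelial factor ELF3 are all among the lower genes, as are FOSB and ATF3.

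At timepoint 3 the ratio was higher than at timepoint 1 for EVI2A (3.25), PIH1D2 (2.13), TRDMT1 (1.78), MND1 (1.65), RPL22L1 (1.55), PFDN4 (1.54), GAD1 (1.41), CKS2 (1.37) and TGFBI (1.07). It was lower for NFATC2 (-6.05), GPNMB (-4.89), ATF3 (-4.65), MUC16 (-4.29), ELF3 (-4.18), ADM2 (-4.02), CYP4F12 (-3.74), FOSB (-3.73), JUN (-3.05), CLDN4 (-2.85), DDIT3 (-1.92), CLDN1 (-1.80), FOS (-1.70), ADM (-1.59), VEGFA (-1.28), PDGFA (-1.23) and CEBPG (-0.76). The AP-1 genes JUN, FOS and FOSB, the stress genes ATF3, DDIT3, CEBPG and ADM2 and the growth factors PDGFA and VEGFA are among the lower genes. No interaction passed at timepoint 3 when all 18 libraries were fitted, so each of these calls rests on leaving out 1 2D library of that harvest. Only timepoint 1 libraries were left out in turn, and the groups of timepoints 2 and 3 were not examined for single outlying samples.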

How the results depend on the processing

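The replicate block, other tools and single libraries moved counts of called genes. Leaving out single timepoint 1 libraries also moved list medians. Counted per library left out, 67 medians moved by at least the SD of the pair medians, and 191 did not. The ribosomal protein median ran from -0.37 to 0.26, that of G2-M genes from -0.28 to 0.26 and that of TGF-beta targets from 0.19 to 0.40. Under the other alternatives 4 medians moved and 425 did not. At timepoint 1 the count of called genes was 0 in the main analysis, 9 with DESeq2, 1 without both libraries of number 1, and 0 to 5 when single libraries were left out; it was 0 without the replicate block, with limma-voom, other scalings, other filters, all 18 libraries and the timepoint 1 libraries alone. Genes at an unadjusted p under 0.05 numbered 388 with the block, 244 with no replicate block, 620 with no filter, 212 with a stricter filter, 882 with the timepoint 1 libraries alone, and 334 to 861 when single libraries were left out. Genes with an interval within 2-fold numbered 11813 to 13937, and 12203 to 12641 when single libraries were left out. The interaction counts of 243 (timepoint 2) and 290 (timepoint 3) became 0 and 34 with no replicate block, 1023 and 898 with DESeq2, 29 and 0 with all 18 libraries, 14 and 59 without both timepoint 1 libraries of number 1, and 54 to 724 and 92 to 332 when single timepoint 1 libraries were left out. The cause was not tested. The timepoint 1 libraries alone give no interaction.

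No named gene with an unadjusted p under 0.05 or a call reversed its direction under any alternative run. The limits are these: 3 pairs, a median 95% interval half-width of 1.30-fold at a mean count of at least 50, wider intervals for low genes, p-values that rest on libraries of unstated origin, and unstated strand use.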
